A study of Mus musculus with 18 samples.

Results

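The gasdermins are a family of pore-forming proteins, and RNA of 7 of their genes was followed in mouse colon. The 7 members, Gsdma, Gsdmc, Gsdmc2, Gsdmc3, Gsdmc4, Gsdmd and Gsdme, were taken by gene name from a table of 47729 genes. In brief, Gsdmc4 and Gsdmd moved in opposite directions in colitis-associated cancer of WT mice, and Gsdmc4 RNA was higher in treated mice with the claudin-2 transgene than in treated WT mice.

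A gasdermin protein is held inactive by its own C-terminal part until a protease cuts the linker that joins it to the N-terminal part. The freed N-terminal part then inserts into the plasma membrane and forms a pore, through which interleukin-1 family cytokines leave the cell and which can end in the lytic death called pyroptosis. Gasdermin D is the target of the inflammatory caspases downstream of inflammasomes, gasdermin E is cut by proteases of apoptosis and by a granzyme, and gasdermin A is best known from skin and other stratified epithelia. Mice carry a cluster of gasdermin C genes that intestinal epithelial cells express, and these genes are known to respond to the type 2 cytokines.

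RNA-Seq was done on total RNA of the colon of 3 naive WT mice (mice 1 to 3), 3 WT mice with colitis-associated cancer (WT CAC, mice 4 to 6) and 3 claudin-2 transgenic mice with the same treatment (Cldn2TG CAC, mice 7 to 9). The treatment joined a single dose of the carcinogen azoxymethane (AOM), 10 mg/kg, with DSS, an irritant of the colon given at 2.5% in 3 cycles. The transgene puts Cldn2, which codes for a pore-forming tight junction protein, under the villin promoter, so it acts in the intestinal epithelium. The naive group carries the treatment label Control, although its protocol field repeats the AOM and DSS text, and it was taken as untreated. No transgenic mice without AOM/DSS and no age were given, so Cldn2TG CAC differs from naive WT by genotype and treatment at once.

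Each library held between 14142711 and 22262546 counts on genes, and 3 counts, the limit that a count of 0 allows, corresponded to 0.135 to 0.212 counts-per-million (CPM). Values below are CPM after TMM normalization unless another scale is named. All 8 markers of colonic epithelium were present in every mouse, with a summed level of 12620 to 16870 CPM. Cldn2 itself had a mean of 231 ± 34.9 CPM (SD, n = 3) in naive WT, 130 ± 7.77 in WT CAC and 224 ± 21.1 in Cldn2TG CAC. Cldn2 counts do not tell the transgene from the endogenous gene. They were higher in Cldn2TG CAC than in WT CAC (log2 fold change 0.78, SE 0.124, adjusted p = 0.0103 by edgeR's quasi-likelihood test) but not higher than in naive WT. Xist, an RNA of the inactive X chromosome, had 4309 counts in naive mouse 1 and at most 4 in each other mouse. By this RNA mouse 1 appears to be the only female. Sex was then not matched between naive WT and the treated groups, and no fit held a term for it.

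The 4 gasdermin C genes lie side by side on the minus strand of chromosome 15 (GRCm38), in the order Gsdmc (chr15:63775968-63808759), Gsdmc2 (chr15:63824346-63845177), Gsdmc3 (chr15:63857724-63878558) and Gsdmc4 (chr15:63891264-63912297). Their first coding exons are shown because they are so alike that reads from them cannot always be given to a single gene. The first 120 coding bases from the GENCODE M21 transcripts follow, with capitals for bases that differ from Gsdmc4.
Gsdmc4 (chr15:63902811-63902930, minus strand): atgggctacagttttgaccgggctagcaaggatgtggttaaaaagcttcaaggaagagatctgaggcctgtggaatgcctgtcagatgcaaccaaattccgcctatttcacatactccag
Gsdmc3 (chr15:63869178-63869297, minus strand): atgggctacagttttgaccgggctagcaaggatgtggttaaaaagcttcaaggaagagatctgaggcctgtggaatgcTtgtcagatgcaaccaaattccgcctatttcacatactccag
Gsdmc2 (chr15:63835824-63835943, minus strand): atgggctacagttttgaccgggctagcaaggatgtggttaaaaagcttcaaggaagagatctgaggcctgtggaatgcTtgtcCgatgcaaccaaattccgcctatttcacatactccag
Gsdmc (chr15:63804473-63804592, minus strand): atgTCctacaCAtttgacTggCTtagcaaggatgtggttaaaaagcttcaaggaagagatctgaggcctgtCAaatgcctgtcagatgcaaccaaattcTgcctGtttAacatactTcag

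Gsdmc3 differed from Gsdmc4 at 1 of these 120 bases, Gsdmc2 at 2 and Gsdmc at 13. Other exons tell the genes apart better, as the 100 coding bases of 1 exon with the most differences show, again with capitals for bases that differ from Gsdmc4.
Gsdmc4 (chr15:63893779-63893878, minus strand): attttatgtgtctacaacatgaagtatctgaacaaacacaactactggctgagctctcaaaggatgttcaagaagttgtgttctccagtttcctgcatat
Gsdmc3 (chr15:63860262-63860361, minus strand): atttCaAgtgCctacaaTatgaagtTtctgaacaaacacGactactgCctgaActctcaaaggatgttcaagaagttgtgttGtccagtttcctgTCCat
Gsdmc2 (chr15:63826832-63826931, minus strand): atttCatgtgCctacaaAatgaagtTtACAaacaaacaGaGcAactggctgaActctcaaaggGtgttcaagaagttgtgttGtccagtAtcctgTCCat

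Over the whole coding sequence, Gsdmc2 and Gsdmc3 were 97.1% identical (42 differing bases of 1440 aligned), and each was close to Gsdmc4 (93.5% for Gsdmc2 and 93.4% for Gsdmc3). Gsdmc was the most distant, at 86.1% to 86.4%. Of all stretches of 100 bases in the longest transcript, 20.2% in Gsdmc4, 28.6% in Gsdmc2 and 30.5% in Gsdmc3 were found letter for letter in another gene, and these genes were all gasdermin C genes. At 50 bases the shares were 39.0%, 48.5% and 46.9%. No stretch of Gsdmd or Gsdme was shared at either length, and 1.8% of those of Gsdma were shared with Gsdma2 at 100 bases. The split of reads among the gasdermin C genes therefore depended on how the authors treated reads with several matches, and the values of the single gasdermin C genes are uncertain to that extent. Apart from such copies, no exonic base of the 7 members overlapped another annotated gene.

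Gsdmd lies on the plus strand of the same chromosome (chr15:75862339-75867404). Its coding stretch around codon 276, which codes for the aspartate after which inflammatory caspases cut the mouse protein, is shown because RNA levels carry no information on this cut. The codon is in capitals within 60 coding bases, which an intron splits into chr15:75866146-75866176 and chr15:75866296-75866324.
Gsdmd: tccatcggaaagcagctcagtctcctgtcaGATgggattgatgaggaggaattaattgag

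Of the 7 members, 6 passed the filter on low counts in each comparison. Gsdmc did not, with 2 to 10 counts in a mouse and 0.136 to 0.732 CPM, and it was not tested. Per length, Gsdmc4 ranked first in 8 of 9 mice. In naive WT colon the mean levels were 547 CPM per kilobase for Gsdmc4, 157 for Gsdmc2, 125 for Gsdmd and 87.4 for Gsdmc3, against 1.22 for Gsdme, 0.792 for Gsdma and 0.128 for Gsdmc. No neighbours in this order overlapped in their naive mice. In WT CAC the ranges of Gsdmc4 (188 to 262 CPM per kilobase) and Gsdmd (211 to 237) overlapped, and Gsdmd ranked first in mouse 6. In Cldn2TG CAC the neighbours that overlapped were Gsdmc2 (140 to 195) with Gsdmd (160 to 173), and Gsdma (0.836 to 1.99) with Gsdme (1.06 to 1.21). The length deposited for Gsdme, 12742 bases, is long beside its coding sequence of 1536 bases, and a longer length gives a lower value on this scale.

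**Figure D1:**
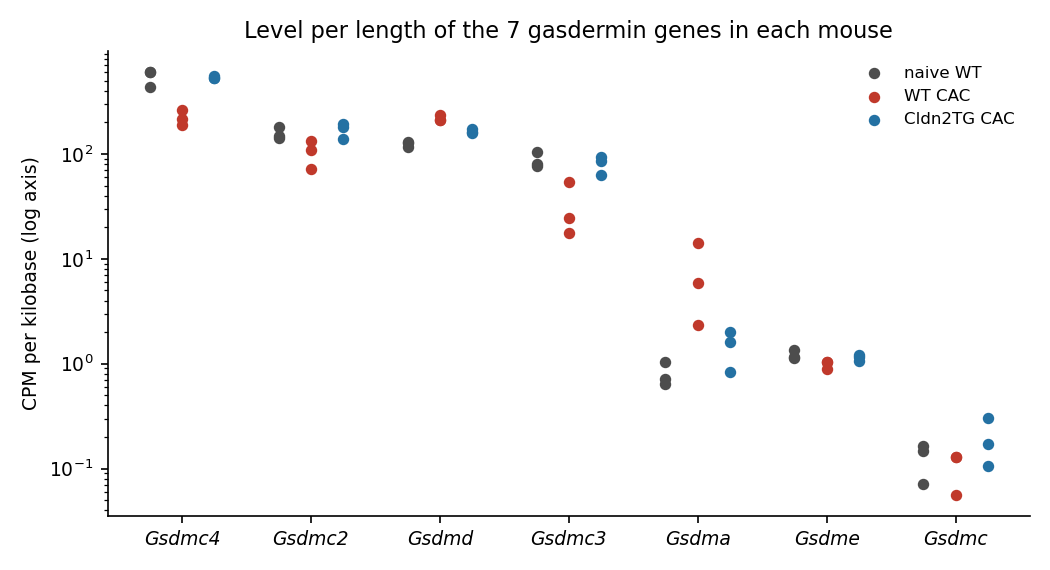
Level per length of the 7 gasdermin genes, in CPM per kilobase on a log axis, with 1 point per mouse and colours for the 3 groups. Gsdmc4, Gsdmc2, Gsdmd and Gsdmc3 lie between 17.7 and 607 CPM per kilobase in every mouse, and Gsdma, Gsdme and Gsdmc at or below 14.3.

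The comparison of WT CAC with naive WT asked what the cancer model does to the colon of WT mice. Of the 6 tested members, 3 were called at an adjusted p under 0.05. The pore former Gsdmd and the low-level Gsdma rose and Gsdmc4 fell. Of all 15437 genes tested, 15% were called, 8.04% higher and 6.92% lower. All 6 tested members had groups of mice that did not overlap, as did 38% of all genes tested. The median log2 fold change was -0.43 over the 6 members and 0.02 over all genes tested.

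Gsdmd was at 232, 226 and 207 CPM in the naive mice and at 376, 374 and 420 CPM in WT CAC. Every WT CAC mouse was above every naive mouse, with little spread in either group. Gsdmd was 1.77-fold higher (log2 fold change 0.82, SE 0.111, adjusted p = 0.00806 by edgeR's quasi-likelihood test). The call held in 13 of 14 alternatives, and without naive mouse 2 its adjusted p was 0.0529.

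Gsdmc4 was at 1267, 1252 and 904 CPM in naive mice and at 446.6, 545.9 and 391.8 CPM in WT CAC. Again the groups did not overlap. It fell by 1.30 on the log2 scale (SE 0.184, adjusted p = 0.00839), to 0.406 of its naive level. This call too held in 13 of 14 alternatives and was lost without naive mouse 2 (adjusted p = 0.0522). The other gasdermin C genes of the colon were also lower in every WT CAC mouse, but neither passed the main test. Gsdmc3 was at 188, 245 and 177 CPM in naive mice and at 126, 56.9 and 41.2 CPM in WT CAC (log2 fold change -1.44, SE 0.394, adjusted p = 0.0518). Gsdmc2 was at 342, 417 and 330 CPM against 308, 253 and 167 CPM (log2 fold change -0.58, SE 0.216, adjusted p = 0.109). Mouse 4 was the highest of the WT CAC group for both, and without it the log2 fold change was -2.04 for Gsdmc3 (adjusted p = 0.000587) and -0.78 for Gsdmc2 (0.0226). Gsdmc3 was also called with DESeq2 (0.000656), with library size scaling (0.0496) and with all 9 mice in the fit (0.0258), and Gsdmc2 with none of these.

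Summed over the 4 gasdermin C genes, the level was 1412 to 1914 CPM in naive mice and 600.0 to 880.9 CPM in WT CAC. Because Gsdmd moved the other way, the ratio of this sum to Gsdmd went from 7.68 ± 0.836 (SD, n = 3) in naive WT to 2.02 ± 0.514 in WT CAC. Gsdmc4 made up 64.1% to 70.5% of the cluster's counts in naive mice and 50.7% to 65.3% in WT CAC, and the share of Gsdmc2 was higher in each WT CAC mouse (27.8% to 35.0%) than in any naive mouse (19.0% to 23.4%). These sums and shares were not tested, and reads with several matches would be missing from the sums too if the counting dropped them.

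Gsdma was low in naive colon, at 1.74, 2.80 and 1.94 CPM, and at 6.44, 15.9 and 38.9 CPM in WT CAC. The 3 WT CAC mice were all above the naive mice and spread widely among themselves, with mouse 6 highest. Gsdma was 9.45-fold higher (log2 fold change 3.24, SE 0.654, adjusted p = 0.0245 by edgeR's quasi-likelihood test). The size rests in part on mouse 6, without which the log2 fold change was 2.38 with an adjusted p of 0.0263. The call was lost without naive mouse 1, 2 or 3 (adjusted p = 0.0847, 0.0872 and 0.084) and with no filter on low counts (0.0953).

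Gsdme was at 17.2, 14.4 and 14.9 CPM in naive mice and at 13.3, 13.3 and 11.3 CPM in WT CAC. The groups did not overlap, but the difference did not pass the test in the main comparison or in any of its 14 alternatives (log2 fold change -0.28, 2 SE interval -0.58 to 0.01, adjusted p = 0.225).

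**Figure D2:**
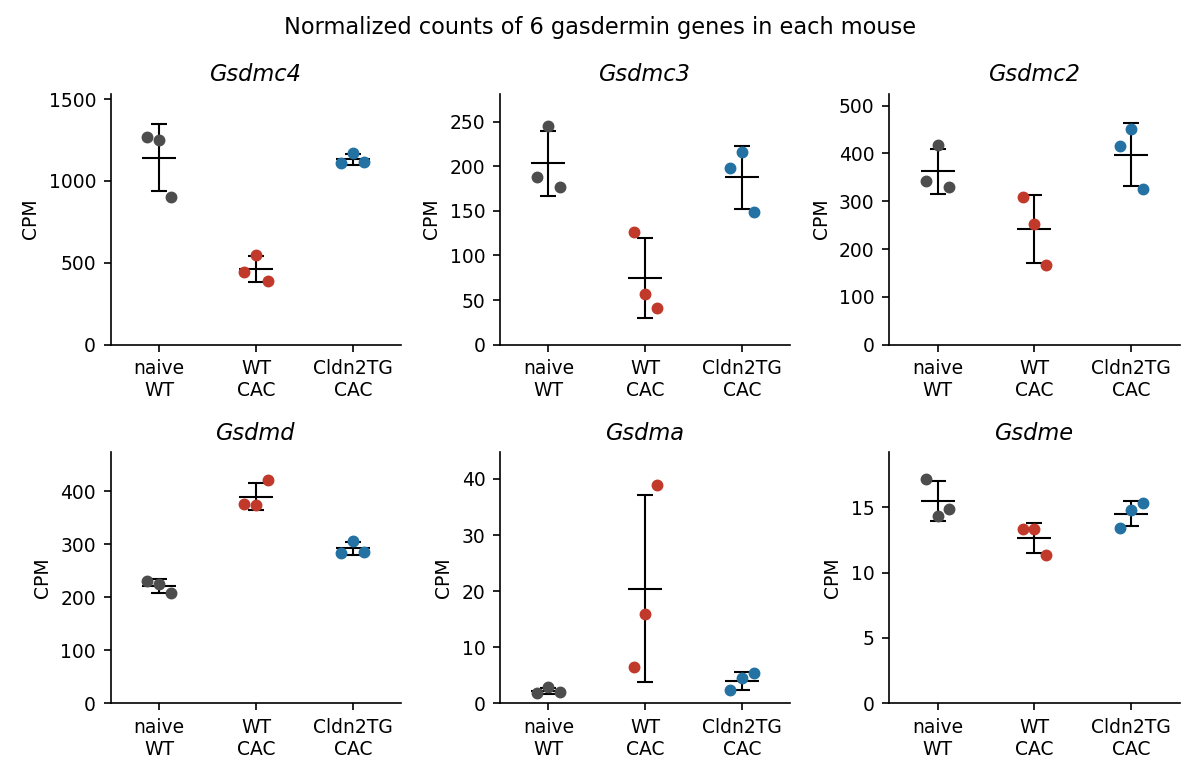
CPM of the 6 tested gasdermin genes in each mouse (points) with the group mean and SD (bars, n = 3), each panel from 0. The 3 gasdermin C genes are lowest in WT CAC, Gsdmd and Gsdma are highest there, and for Gsdmd the Cldn2TG CAC mice (284 to 306 CPM) lie between the other groups.

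The comparison of Cldn2TG CAC with WT CAC asked what the transgene changes under the same treatment. Gsdmc4 was higher in the transgenic mice, the only 1 of the 6 tested members that was called. Of all 14888 genes tested, 9.54% were called, 2.19% higher and 7.35% lower. All 6 members again had groups that did not overlap, as did 28% of all genes tested, and the 4 that were lower in WT CAC than in naive mice were higher here. The median log2 fold change was 0.45 over the members and 0.01 over all genes. Both comparisons use the same WT CAC mice, so a chance deviation in these mice moves them in opposite directions.

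Gsdmc4 was at 1107, 1169 and 1118 CPM in Cldn2TG CAC, above each WT CAC mouse, whose highest value was 546. It was 2.45-fold higher (log2 fold change 1.29, SE 0.154, adjusted p = 0.00625), and the call held in all 14 alternatives, with an adjusted p of 0.0492 at most. Gsdmc3, at 198, 216 and 148 CPM, had a log2 fold change of 1.33 (SE 0.399, adjusted p = 0.0889 by edgeR's quasi-likelihood test). Gsdmc2, at 416, 452 and 325 CPM, had one of 0.71 (SE 0.227, adjusted p = 0.0913). Neither was called. The summed level of the cluster, 1592 to 1837 CPM, was above that of every WT CAC mouse.

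Gsdmd was at 284, 306 and 286 CPM, below each WT CAC mouse and above each naive mouse. Against WT CAC its log2 fold change was -0.42 (SE 0.116, adjusted p = 0.0577), which did not pass the test. Gsdma was at 2.28, 4.43 and 5.41 CPM, all below the lowest WT CAC mouse (6.44), with a log2 fold change of -2.33 (SE 0.668, adjusted p = 0.0806). Gsdme, at 13.5, 14.8 and 15.4 CPM, had one of 0.19 (SE 0.16, adjusted p = 0.552).

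Whether the other members passed depended on the test, the scaling and 1 mouse, while Gsdmc4 passed throughout. With DESeq2, with all 9 mice in the fit or without WT CAC mouse 4, the called members were 5 (all tested members but Gsdme), and with library size or upper quartile scaling they were 2 (Gsdmc4 and Gsdmd). Without mouse 4 the log2 fold change was 1.93 for Gsdmc3 (adjusted p = 0.000361), 0.92 for Gsdmc2 (0.0162), -2.74 for Gsdma (0.00693) and -0.44 for Gsdmd (0.0352).

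**Figure D3:**
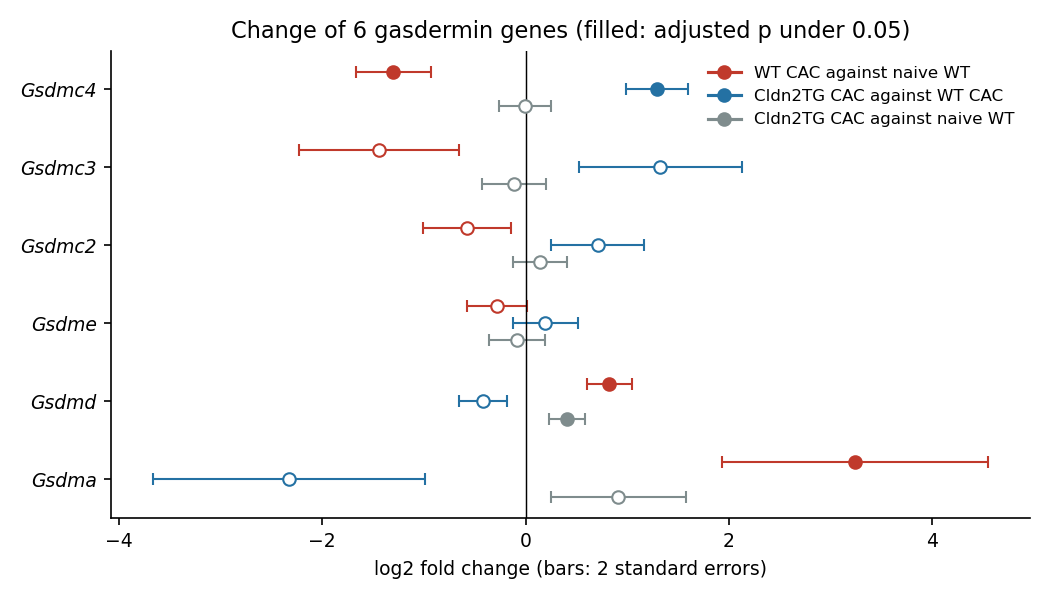
Log2 fold change of the 6 tested gasdermin genes in the 3 comparisons (colours), with bars of 2 standard errors and filled points for an adjusted p under 0.05. Filled points are Gsdmc4 (-1.30), Gsdmd (0.82) and Gsdma (3.24) for WT CAC against naive WT, Gsdmc4 (1.29) for Cldn2TG CAC against WT CAC, and Gsdmd (0.41) for Cldn2TG CAC against naive WT.

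Set against naive WT, the treated transgenic colon was close for the gasdermin C genes and higher for Gsdmd. Gsdmd was the 1 called member of 6, where 10% of the 15013 genes tested were called (3.92% higher and 6.07% lower). Its groups did not overlap, against 31.4% of all genes, and it was the only member of which this was so. Gsdmd was 1.33-fold higher (log2 fold change 0.41, SE 0.09, adjusted p = 0.0192 by edgeR's quasi-likelihood test). The call was lost without naive mouse 3 (0.0859), without Cldn2TG CAC mouse 8 (0.0799), with library size scaling (0.0558) and with all 9 mice in the fit (0.057).

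Gsdmc4 had a log2 fold change of -0.01 with a 2 SE interval of -0.26 to 0.25. For Gsdmc3 it was -0.11 (-0.43 to 0.21), for Gsdmc2 0.14 (-0.13 to 0.40) and for Gsdme -0.08 (-0.36 to 0.19). The groups overlapped in all 4. Gsdma had a log2 fold change of 0.91 (SE 0.331, adjusted p = 0.11) and was called without Cldn2TG CAC mouse 7 (1.18, adjusted p = 0.032) and with no filter on low counts (0.0199). The median over the members was 0.07, and 0.00 over all genes tested.

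The other mouse gasdermin genes were at or near 0. Gsdma3 had no counts in any mouse, Gsdma2 reached 13 counts in WT CAC mouse 6 and at most 1 in every other mouse, and Pjvk, the gene of the gasdermin-related protein pejvakin, had at most 2. The cluster also holds gasdermin C-like loci on the opposite strand that are not members, and they were chosen after their values were seen. Gsdmcl2 (chr15:63880707-63890512), a locus between Gsdmc3 and Gsdmc4, was at 178, 157 and 107 CPM in naive mice, at 57.5, 71.2 and 50.7 CPM in WT CAC and at 151, 149 and 137 CPM in Cldn2TG CAC. It was called lower in WT CAC (log2 fold change -1.29, SE 0.21, adjusted p = 0.0129) and higher in Cldn2TG CAC than in WT CAC (1.28, SE 0.151, adjusted p = 0.00625). The first call was lost without naive mouse 2 (adjusted p = 0.0626). Gsdmcl-ps, at 4.51 to 10.0 CPM, was not called, and Gsdmcl1 had at most 1 count in a mouse. No exonic base of Gsdmcl2 overlapped Gsdmc3 or Gsdmc4, and no stretch of 50 bases of these members was found in it. The strand setting of the counting is not given. Whether the Gsdmcl2 counts are separate from transcription of its neighbour Gsdmc4 was not tested, so its calls are not a second, independent result.

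Genes whose RNA moved most like each member over the 9 mice are given as a description, since many genes differ between the groups and all points share the 3 groups. By Pearson's r of log2 CPM among 13863 genes, Gsdmc4 was nearest to Xpr1 (r = 0.994), a phosphate exporter. Next were Me2 (0.988) and Immt (0.984), nuclear genes whose proteins are mitochondrial. Gsdmc3 was nearest to Acad8 (0.992), Coq8a (0.988) and Mettl7a1 (0.986), and Gsdmc2 to Hykk (0.991), Chd7 (0.98) and Tlr1 (0.972). Gsdmd was nearest to Tspo (0.991), the mitochondrial translocator protein, Avpi1 (0.987) and the glutathione transferase Gsta2 (0.981). Gsdma was nearest to Nfe2l3 (0.981), Marcksl1 (0.981) and Gm379 (0.977), and Gsdme to Slc13a2 (0.954), Ankrd46 (0.951) and Zfp493 (0.948).

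Most calls of genes around the gasdermins were lost when any mouse but WT CAC mouse 4 was left out, while their fold changes kept their sign. Of 16 calls given with a fold change in the next paragraphs for WT CAC against naive WT, 13 were lost without naive mouse 2, 11 without naive mouse 1, 11 without naive mouse 3, 9 without WT CAC mouse 5 and 9 without mouse 6, and 0 without mouse 4. The log2 fold changes of these 16 moved by a median of 0.08 to 0.14 with a mouse left out, and none changed sign. Of 11 such calls for Cldn2TG CAC against WT CAC, all 11 were lost without Cldn2TG CAC mouse 8, 8 without mouse 9, 7 without mouse 7, 8 without WT CAC mouse 5 and 7 without mouse 6, and 0 without mouse 4. These 11 moved by a median of 0.08 to 0.23, again with no change of sign. For the list counts below, the shares called over all genes tested were 15% for WT CAC against naive WT, 9.54% for Cldn2TG CAC against WT CAC and 10% for Cldn2TG CAC against naive WT.

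Among the proteases listed beside the gasdermins, the genes called in the first 2 comparisons were granzymes of cytotoxic lymphocytes. Whether each listed protease, granzyme A among them, cuts a mouse gasdermin was not tested. In WT CAC against naive WT, 1 of 5 tested genes of the list was called, Gzma, at 0.742 ± 0.81 CPM (SD, n = 3) in naive WT and 8.96 ± 6.21 CPM in WT CAC (log2 fold change 3.56, SE 0.94, adjusted p = 0.0478). The Gzma call held in 5 of 13 alternatives, and without naive mouse 3 its log2 fold change was 4.99 (adjusted p = 0.0576). Gzmb had a log2 fold change of 3.46 (SE 1.02, adjusted p = 0.0627), with no overlap of the groups, and DESeq2 called both granzymes. The list's median was 0.20, against 0.02 for all genes. Not called were Casp1, which cuts gasdermin D in the canonical inflammasome pathway (0.13, SE 0.124), and Casp4, the mouse caspase-11, which does so after sensing lipopolysaccharide (0.20, SE 0.201). Casp8, best known from apoptosis, was not called either (-0.05, SE 0.156).

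In Cldn2TG CAC against WT CAC, 1 of the 5 was called, Gzmb, whose protein can cut gasdermin E (5.04 ± 3.46 CPM in WT CAC and 0.641 ± 0.192 in Cldn2TG CAC, log2 fold change -2.93, SE 0.688, adjusted p = 0.0357), a call that held in 6 of 12 alternatives. Gzma had one of -2.58 (SE 0.757, adjusted p = 0.0826), and DESeq2 again called both. The list's median was 0.03, with 0.19 for Casp1 and 0.16 for Casp4, neither of them called. Against naive WT, Casp1 was the 1 called gene, at 163 ± 5.48 CPM in naive WT and 204 ± 2.51 CPM in Cldn2TG CAC (log2 fold change 0.33, SE 0.086, adjusted p = 0.036), a call lost when any 1 of the 6 mice was left out, and the list's median was 0.37.

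Of 13 tested inflammasome sensors and adaptors, 2 were called in WT CAC against naive WT, near the share of 15% over all genes tested. The same genes were called the other way in Cldn2TG CAC against WT CAC. Nlrp6, a sensor that colonic epithelium expresses strongly, was at 310, 333 and 317 CPM in naive mice, 149, 130 and 95.1 CPM in WT CAC and 251, 297 and 212 CPM in Cldn2TG CAC. It fell by 1.35 on the log2 scale in WT CAC (SE 0.165, adjusted p = 0.00664) and was higher in Cldn2TG CAC than in WT CAC (1.02, SE 0.192, adjusted p = 0.0161). Each Cldn2TG CAC value was below each naive value, but that difference was not called (-0.33, adjusted p = 0.107). Mefv, which codes for the sensor pyrin, was near the limit of detection, at 0.285 ± 0.151, 1.33 ± 0.59 and 0.182 ± 0.173 CPM in the 3 groups, and was called higher in WT CAC (2.23, SE 0.51, adjusted p = 0.0282) and lower in Cldn2TG CAC than in WT CAC (-2.82, SE 0.691, adjusted p = 0.0377). The latter was -3.46 (adjusted p = 0.0786) without Cldn2TG CAC mouse 7. The list's median was 0.20 in the first comparison and -0.18 in the second, and 0 of 12 tested genes were called against naive WT by edgeR or DESeq2 (median 0.03, 2 with an unadjusted p under 0.05).

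Among the cargo of gasdermin pores and the rupture protein, 2 interleukins had calls. Il1b was at 0.697, 0.4 and 0.688 CPM in naive mice, 1.82, 18.7 and 10.2 CPM in WT CAC and 0.621, 0.453 and 0.878 CPM in Cldn2TG CAC. It rose in WT CAC (log2 fold change 4.10, SE 0.839, adjusted p = 0.0249) and was lower in Cldn2TG CAC than in WT CAC (-4.00, SE 0.861, adjusted p = 0.0322). Without WT CAC mouse 5, the highest, these were 3.31 (adjusted p = 0.048) and -3.20 (0.0616). Il18, made by colonic epithelium, had means of 151 ± 42.8, 92.5 ± 17 and 139 ± 13.6 CPM, and was called higher in Cldn2TG CAC than in WT CAC (0.58, SE 0.154, adjusted p = 0.049), a call that held in 4 of 14 alternatives, while its difference between WT CAC and naive WT was not called by edgeR (-0.70, adjusted p = 0.071) but was by DESeq2 (0.02), with all 9 mice in the fit (0.0342) and without WT CAC mouse 4 (0.0322). Ninj1, whose protein breaks the plasma membrane after pores have formed, had means of 31.4 to 33.3 CPM in the 3 groups. The list had 1 of 4 tested genes called in the first comparison (median -0.03), 2 of 4 in the second (0.07) and 0 of 4 against naive WT by edgeR or DESeq2 (0.05, 0 with an unadjusted p under 0.05).

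Few genes that repair or assemble pores were called. Of 13 ESCRT-III genes, which pinch off damaged membrane, Chmp6 was the 1 that edgeR called in WT CAC against naive WT (0.36, SE 0.093, adjusted p = 0.0397), where DESeq2 called 2 (Chmp6 and Chmp4b), and edgeR called none in the other comparisons (medians 0.04, 0.07 and 0.14). An unadjusted p under 0.05 was reached by 0 of them in Cldn2TG CAC against WT CAC and 4 against naive WT, where DESeq2 called 1, Chmp2a. Of 10 genes of the Ragulator, the Rag GTPases and the palmitoyltransferases of gasdermin D, none was called by edgeR or DESeq2 in any of the 3 comparisons (medians 0.08, 0.01 and 0.14), and 1, 0 and 2 had an unadjusted p under 0.05. In the first comparison 2 of 4 necroptosis genes were called higher (median 0.65), Ripk3 (0.70, SE 0.168, adjusted p = 0.0312) and Zbp1 (1.68, SE 0.37, adjusted p = 0.0295), while Mlkl, the effector of this other lytic death, was not (0.59, SE 0.238, adjusted p = 0.132). By edgeR none of the 4 was called in Cldn2TG CAC against WT CAC (median -0.51), where 3 had an unadjusted p under 0.05 and DESeq2 called 1, Zbp1, or against naive WT (0.13), where DESeq2 called 0 and 0 had an unadjusted p under 0.05.

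Of 7 tested transcription factors of gasdermin genes, 2 were called in WT CAC against naive WT (median -0.15). Irf1, which acts in interferon signalling, rose (0.47, SE 0.124, adjusted p = 0.0429), which held in 8 of 14. Irf2, which is needed for Gsdmd transcription in several cell types, fell by 0.47 on the log2 scale (SE 0.13, adjusted p = 0.0466) from 155 ± 15.5 to 111 ± 13.3 CPM, a call that held in 5 of 14 alternatives. In Cldn2TG CAC against WT CAC edgeR called 0 of 7 (median -0.05), with -0.14 for Irf1 and 0.41 for Irf2 (adjusted p = 0.0989), where 3 had an unadjusted p under 0.05 and DESeq2 called 1. Against naive WT 0 of 7 were called by edgeR or DESeq2 (0.09), and 1 had an unadjusted p under 0.05.

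Of 7 tested genes of the type 2 cytokine response of the intestinal epithelium, 2 were called lower in WT CAC (median -0.96). Clca1, a goblet cell secretion product, had means of 3969 ± 738, 2027 ± 270 and 3993 ± 1265 CPM in the 3 groups. It fell by 0.96 on the log2 scale in WT CAC (SE 0.179, adjusted p = 0.0173) and was higher in Cldn2TG CAC than in WT CAC (0.98, SE 0.238, adjusted p = 0.0372). Dclk1, a tuft cell marker, fell by 1.41 in WT CAC (SE 0.239, adjusted p = 0.0138) and was also lower in Cldn2TG CAC than in naive WT (-0.88, SE 0.236, adjusted p = 0.0437), a call lost without 4 of the 6 mice. Il4ra, the receptor subunit for interleukin-4 and interleukin-13, moved against the gasdermin C genes: it was at 84.1 ± 44.3 CPM in WT CAC and 21 ± 3.28 CPM in Cldn2TG CAC (-2.01, SE 0.423, adjusted p = 0.0305). The list's median was 0.24 in that comparison and -0.51 against naive WT, where 1 of 7 was called.

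**Figure D4:**
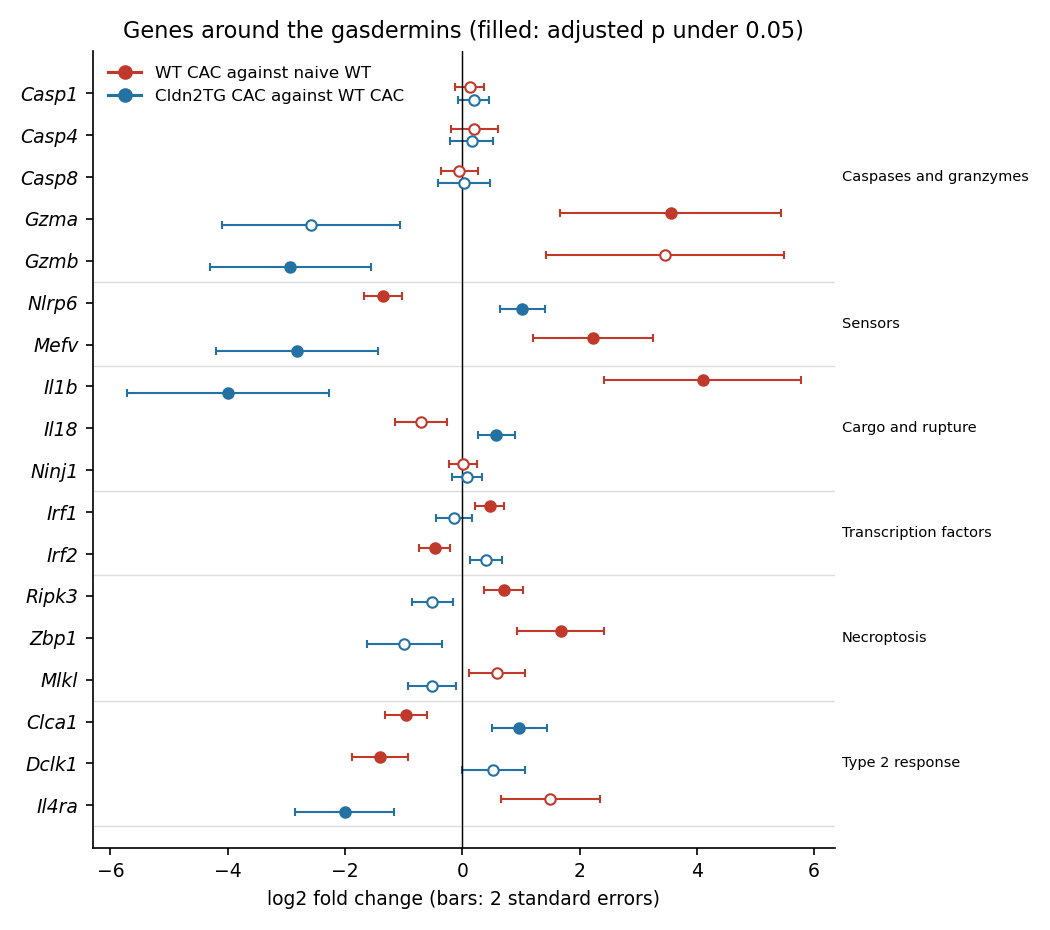
Log2 fold change of genes around the gasdermins in WT CAC against naive WT and in Cldn2TG CAC against WT CAC, with bars of 2 standard errors and filled points for an adjusted p under 0.05. The caspases lie within 0.4 of 0 in both comparisons, and Nlrp6, Mefv, Il1b and Clca1 are filled on opposite sides of 0.

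Markers of some cell types moved alongside members, and those of others did not. In bulk colon, fewer cells of a type and less RNA per cell cannot be told apart. Beside the gasdermin C genes, 3 of 9 markers of differentiated surface colonocytes (Car4, Aqp8 and Slc37a2) were called lower in WT CAC and Guca2b higher (median -0.69), and in Cldn2TG CAC against WT CAC Car4 and Aqp8 were called higher and Guca2b lower (median 1.06). Car4, a carbonic anhydrase of the surface epithelium, was at 1551 ± 327, 492 ± 224 and 1835 ± 199 CPM. Muc3, a membrane mucin and the highest of the list, was at 3658 ± 424, 3143 ± 1657 and 4274 ± 497 CPM and was called in no comparison by edgeR. The summed level of the list was 7757 to 11210 CPM in naive mice, 3524 to 9946 in WT CAC, with mouse 4 highest, and 9394 to 12110 in Cldn2TG CAC. Against naive WT, edgeR called 0 of these 9 markers (median 0.25), 0 had an unadjusted p under 0.05 and DESeq2 called 1, Slc26a3. Their part in the gasdermin C result was not tested.

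Of the 8 markers of colonic epithelium as a whole, edgeR called 0 in each of the first 2 comparisons (medians 0.14 and 0.17), where 4 and 1 had an unadjusted p under 0.05 and DESeq2 called 2 and 1, and it called Krt8 and Cldn7 higher in Cldn2TG CAC than in naive WT (0.27). Krt8 and Epcam, the highest of the list, were at 5092 ± 247 and 2323 ± 85.5 CPM in naive WT. Of 6 markers of crypt base and cycling cells, Ascl2 was called higher and Mki67 lower in WT CAC (median 0.28), none by edgeR in Cldn2TG CAC against WT CAC (-0.28, 2 with an unadjusted p under 0.05, Mki67 called by DESeq2), and Ascl2 higher and Top2a lower against naive WT (-0.26). Of 6 smooth muscle markers, edgeR called 0 in the first 2 comparisons (medians -0.77 and -0.55), where 1 and 0 had an unadjusted p under 0.05 and DESeq2 called Acta2 in the first and 0 in the second, and Myh11 and Acta2 were called lower against naive WT (-1.39), where all 6 had an unadjusted p under 0.05 and DESeq2 called all 6. The highest of them, Tagln (663 ± 195, 455 ± 279 and 322 ± 77.3 CPM) and Des (542 ± 222, 323 ± 214 and 212 ± 43.3 CPM), were not called by edgeR.

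Beside Gsdmd, which myeloid cells express as well as epithelium, 9 of 11 myeloid markers were called higher in WT CAC (median 1.67) and 7 of 10 lower in Cldn2TG CAC against WT CAC (-2.33). Lyz2, a lysozyme of macrophages and neutrophils, was called higher in WT CAC (1.41, SE 0.357, adjusted p = 0.0425) and lower in Cldn2TG CAC than in WT CAC (-2.25, SE 0.4, adjusted p = 0.0188). Against naive WT edgeR called 1 of 8, Ly6g, higher (0.87, SE 0.149, adjusted p = 0.00881), while the list median was -0.56. DESeq2 called 2 there, Ly6g and Csf1r, of which Csf1r was lower (-0.83 by edgeR). Ly6g held most of the summed level and stood apart from the others, with 180 ± 38.7, 317 ± 10.4 and 326 ± 22.6 CPM in the 3 groups. The other 10 markers, a split made after the values were seen, summed to 44.0 to 83.2 CPM in naive mice, 105 to 237 in WT CAC and 21.9 to 48.4 in Cldn2TG CAC. Of 8 lymphocyte markers, 4 were called higher in WT CAC (median 1.85), 5 lower in Cldn2TG CAC against WT CAC (-1.92) and 0 against naive WT by edgeR or DESeq2 (-0.23, 0 with an unadjusted p under 0.05), with summed levels of 9.11 to 34.9, 59.4 to 64.3 and 11.2 to 21.6 CPM. Ptprc, which codes for CD45 of all leukocytes, had log2 fold changes of 1.31 (SE 0.303, adjusted p = 0.0297) and -1.81 (SE 0.241, adjusted p = 0.00777) in the first 2 comparisons. Cd79b, of B cells, was at 3.50 ± 3.65, 9.33 ± 3.71 and 2.36 ± 2.09 CPM and was called in no comparison by edgeR. The part of these cells in the Gsdmd and Il1b results was not tested.

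Beside Gsdma, some keratins of stratified epithelium moved the same way and others did not. Of 12 squamous markers, 5 were tested in WT CAC against naive WT and 3 were called higher (median 3.90). Krt4 and Krt13 passed the filter on low counts only through WT CAC, and neither was tested in Cldn2TG CAC against naive WT. The counts and medians of this list in the first 2 comparisons are therefore partly set by the filter. Krt14 was at 0.746 to 1.90 CPM in naive mice, 12.5 to 28.5 CPM in WT CAC and 2.12 to 3.52 CPM in Cldn2TG CAC. It rose in WT CAC (log2 fold change 3.90, SE 0.421, adjusted p = 0.00492), and with Krt13 (4.75, SE 0.53, adjusted p = 0.00541) was called in every alternative that tested it. Krt4 rose as well (4.84, SE 1.05, adjusted p = 0.0267), with 3.30 (adjusted p = 0.0215) without WT CAC mouse 6. Krt10 (0.17, SE 0.217, adjusted p = 0.633) and Lor (0.61, SE 0.506, adjusted p = 0.438), both of cornifying layers, were not called.

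In Cldn2TG CAC against WT CAC, 2 of 6 tested squamous markers were called lower (median -1.41), Krt14 (-2.91, SE 0.339, adjusted p = 0.00625) and Krt13 (-4.74, SE 0.595, adjusted p = 0.00777), both lost without Cldn2TG CAC mouse 8 (adjusted p = 0.052). Against naive WT edgeR called 1 of 4, Sbsn, higher (median 0.85), and DESeq2 called 0. The summed level was 7.05 to 8.16 CPM in naive mice, 26.5 to 66.6 in WT CAC and 11.3 to 12.8 in Cldn2TG CAC. Of the 12 markers, Krt5, Krt1, Trp63 and Ivl had at most 3 counts in every mouse, with none of Ivl in any, and Krtdap had at most 5. Dsg3, a desmosomal cadherin of the basal layers, was not tested, with 0, 0 and 1 counts in naive mice, 9, 58 and 37 in WT CAC and 0, 2 and 0 in Cldn2TG CAC. Lor, Sbsn and Krt10 had up to 31, 23 and 131 counts in a mouse, and Krt10 was higher in every Cldn2TG CAC mouse than in any WT CAC mouse without being called (0.29, SE 0.225, adjusted p = 0.522). The part of stratified epithelium in the Gsdma result was not tested.

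**Figure D5:**
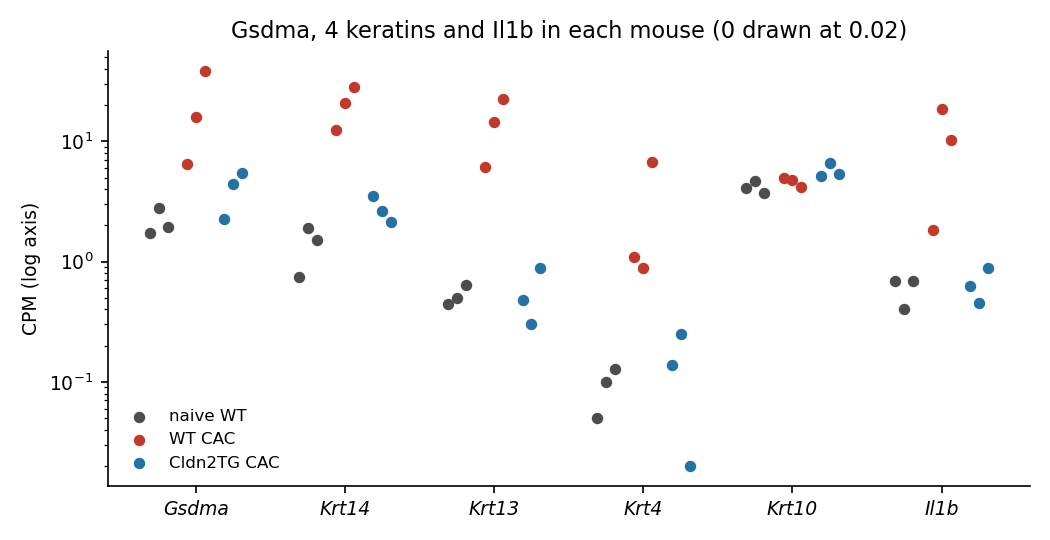
CPM of Gsdma, 4 keratins and Il1b in each mouse on a log axis, with 1 value of 0 drawn at 0.02. Gsdma, Krt14, Krt13 and Krt4 are highest in the WT CAC mice, while Krt10 is at 3.70 to 6.59 CPM in all groups.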

How the data were processed

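Counts per gene were deposited by the authors for 47729 genes in 18 columns, 2 lanes for each of 9 libraries, all of which were used. Per the submitters' processing notes the authors mapped reads with HISAT2 to GRCm38 and counted them with featureCounts of Subread, whereas the study's methods name TopHat2. Versions, strand setting, read length and the treatment of reads with several matches are not given in the sources used here. The gene length, a deposited value of another kind, came from the same table. Lanes were summed per mouse. Symbols were matched for 47224 identifiers through GENCODE M21, and 12 of 13 gasdermin loci have the same start and end there.

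Each comparison was fitted on its 6 mice with edgeR 4.0.16 in R 4.3.3 (TMM, filterByExpr with a minimum count of 10, robust quasi-likelihood, two-sided test), with Benjamini-Hochberg adjustment over all genes tested. Genes with an adjusted p under 0.05 were called. Standard errors were derived from the F statistic. The labels give 3 separate mice per group, and p-values measure the spread between them. The floor of 3 counts covers counting error only. Sequences were compared with MAFFT 7.526. The scripts were tested on simulated data.

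The members and the gene lists were chosen with earlier results of these data known. Some genes of the lists are not reported here, and list counts and medians leave them out. Besides the members and the remaining family genes, the genes named were Casp1, Casp4, Casp8, Il1b, Il18, Ninj1, Irf1, Irf2 and Mlkl, up to 3 called genes per direction, list and comparison by size with at least 1 CPM, the 2 highest markers of each marker list, the 3 nearest patterns of each member over 9 mice (log2 CPM, prior count 2), and Cldn2. Other genes, among them Xist, Chmp2a, Chmp4b, Dsg3, Gsdmcl2, Gsdmcl-ps and Gsdmcl1, the keratins and the called markers, were named after their values were seen. Alternatives were DESeq2 1.42.0, library size or upper quartile scaling, no filter on low counts, a minimum of 10 counts per mouse, 1 fit over all 9 mice, either lane alone, and each mouse left out in turn. No sequence of a promoter or protein was used.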

Additional observations from a re-analysis of the deposited data

How the results depend on the processing

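Groups of 3 mice limit every call, and most calls other than that of Gsdmc4 in Cldn2TG CAC against WT CAC were lost under some alternative. Leaving out each mouse in turn gave 135 to 4080 called genes for WT CAC against naive WT, 58 to 2894 for Cldn2TG CAC against WT CAC and 525 to 1383 for Cldn2TG CAC against naive WT. The called members ranged over the same settings from 0 (without naive mouse 2) to 5 (without WT CAC mouse 4), from 1 to 5, and from 0 to 2. With a minimum of 10 counts per mouse 908 genes, and with 1 fit over all 9 mice 2136, were called for Cldn2TG CAC against WT CAC. The called members there were 5 with DESeq2, 5 with all 9 mice, 2 with library size scaling and 2 with upper quartile scaling. For Cldn2TG CAC against naive WT, 2567 genes and 2 members were called with no filter, 445 genes and 0 members with all 9 mice, and 0 members with library size scaling. In that comparison values near 0 changed sign. With 1 mouse left out at a time, Gsdmc3 ranged from -0.229 to 0.045 (0.028 without Cldn2TG CAC mouse 9), Gsdmc4 from -0.148 to 0.081 (0.065 without naive mouse 2, 0.005 without Cldn2TG CAC mouse 7), Gsdme from -0.135 to 0.003 (0.19 with lane 2 only) and Gsdmcl2 from -0.191 to 0.159 (0.042 without naive mouse 2, 0.032 without Cldn2TG CAC mouse 9). In WT CAC against naive WT, Casp8 ranged from -0.204 to 0.094 and Ninj1 from -0.061 to 0.082 (-0.041 without WT CAC mouse 4, -0.018 without mouse 6), with -0.022 for Ninj1 with no filter. Of the calls of genes in the pathway lists and of Krt14, Krt13, Krt4, Lyz2 and Ptprc, 3 of 16 (Nlrp6, Krt14 and Krt13), 0 of 11 and 0 of 2 held in every alternative that tested them in the 3 comparisons. The calls of other markers were not followed through the alternatives. The cause of these changes was not tested. Gsdmc, with at most 10 counts in a mouse, was too low for any comparison at this depth. No paired analysis was possible because the labels give the groups no shared replicate numbers.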
